A study of Mus musculus with 8 samples.

Results

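The genes described here are the glucose transporter Slc2a1 and 9 enzymes of glycolysis, Hk1, Hk2, Pfkl, Pfkp, Pfkfb3, Pgk1, Eno1, Pkm and Ldha, in mouse white adipose tissue. They were found on the array through the accession that each probe carries, and all 10 were measured, by 15 probes of the 55681 on the array, so that they make up 10 of the 25141 gene names tested. The tissue came from 5-week-old mice of 129 × C57BL/6 background kept on regular chow, 4 of them wild type (WT) and 4 of the Ad/NICD genotype, which overexpresses the Notch1 intracellular domain, the fragment that carries the signal of the receptor into the nucleus. Each of 4 arrays with 2 colours carried 1 WT and 1 Ad/NICD sample of the same replicate number, and the replicates are biological per the labels. The sources used here do not give the promoter of the transgene, the depot or the sex.

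Glycolysis splits glucose into pyruvate and yields ATP, and in fat cells it also feeds the glycerol backbone and the acetyl groups from which triglyceride is made. Glucose enters through transporters, of which Slc2a1 (GLUT1) serves basal uptake in many cells and Slc2a4 (GLUT4) is the insulin-responsive form of fat and muscle. Hexokinases trap the sugar, phosphofructokinase sets the pace under the control of the PFKFB enzymes, and lactate dehydrogenase turns pyruvate into lactate.

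The genotypes were compared by log2 ratios, of which a positive one means a higher signal in Ad/NICD. This direction is the likely one and takes the red channel (Cy5) as Ad/NICD. The authors' value table holds the green channel under its WT columns and the red channel under its Ad/NICD columns. The labelling protocol gives Cy3 to control and Cy5 to test samples, whereas the dye tags of the samples give Cy5 to WT, under which each sign here would be the opposite and WT and Ad/NICD levels would change places. No array had its dyes swapped, so dye and genotype cannot be told apart. A level here is the log2 signal of 1 channel after loess and scaling between arrays, and it compares samples for 1 probe, not 1 gene with another. In bulk tissue, fewer cells of a type and less RNA per cell cannot be told apart.

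None of the 10 genes passed the test for a difference between genotypes. The 2 whose levels did not overlap between WT and Ad/NICD samples were Pfkfb3, at a mean log2 ratio of -0.85 ± 0.18 (SE, n = 4 arrays), and Slc2a1, at 0.26 ± 0.10, whose sign turned, to -0.26, when arrays were centred on their median in place of loess. Among all gene names, groups did not overlap for 5.58% that were lower and 4.21% that were higher. By the brightest probe of each, the other 8 of the 10 genes lay between -0.38 and 0.17 with overlapping groups. Of 26 lipid genes 23 had ratios below 0 and of the 10 glycolysis genes 5, next to 51.6% of all gene names. Under median centring, which moved the median of all gene names to -0.32, these counts were 26 and 10. They were 25 and 8 without replicate 1 and 19 and 4 without replicate 2.

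The arrays had median green signals of 67 to 79 intensity units over a background of 45 to 46, and median red signals of 31 to 40 over 19 to 20. The 10 adipocyte markers, Adipoq and Plin1 among them, were well above background on 4 of 4 arrays in both genotypes, as the tissue label has it. Xist lay between 10.15 and 10.45 in replicates 1 to 3 of both genotypes and at 6.12 and 5.87 in WT and Ad/NICD replicate 4, while the Y-linked Eif2s3y was at 10.94 and 10.82 there and at most 6.06 in the others, so the replicate 4 pair has the male pattern. Skeletal muscle markers also set samples apart. Over 14 of them, the mean level was 11.72 in WT replicate 4 and 9.29 in WT replicate 2, against 7.85 in WT replicates 1 and 3 and between 7.28 and 8.91 in Ad/NICD samples.

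The stretches upstream of Slc2a1 and Pfkfb3 are shown because these are the 2 genes whose groups did not overlap. They are RefSeq sequences of build GRCm38.p6, from 250 bases before to 50 bases after a transcription start, written 5′ to 3′ along the gene. Slc2a1 starts on the plus strand (chr4:119108495-119108794), and Pfkfb3 has 2 windows on the minus strand, the first at chr2:11553880-11554179 and the second, of a start further inside the gene, at chr2:11502041-11502340. Capitals mark the core of the hypoxia response element, ACGTG or GCGTG, read on either strand.
Slc2a1: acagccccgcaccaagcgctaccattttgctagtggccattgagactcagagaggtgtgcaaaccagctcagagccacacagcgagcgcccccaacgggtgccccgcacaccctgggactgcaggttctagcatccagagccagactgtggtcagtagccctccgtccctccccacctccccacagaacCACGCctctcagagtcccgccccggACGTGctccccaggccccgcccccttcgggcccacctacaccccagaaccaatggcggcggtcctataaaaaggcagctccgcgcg
Pfkfb3 first window: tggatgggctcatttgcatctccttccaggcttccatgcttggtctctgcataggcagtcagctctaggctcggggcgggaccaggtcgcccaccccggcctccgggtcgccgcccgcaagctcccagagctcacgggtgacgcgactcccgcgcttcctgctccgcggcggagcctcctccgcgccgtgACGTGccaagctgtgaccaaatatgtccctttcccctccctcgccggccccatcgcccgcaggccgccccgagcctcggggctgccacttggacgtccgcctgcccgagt
Pfkfb3 second window: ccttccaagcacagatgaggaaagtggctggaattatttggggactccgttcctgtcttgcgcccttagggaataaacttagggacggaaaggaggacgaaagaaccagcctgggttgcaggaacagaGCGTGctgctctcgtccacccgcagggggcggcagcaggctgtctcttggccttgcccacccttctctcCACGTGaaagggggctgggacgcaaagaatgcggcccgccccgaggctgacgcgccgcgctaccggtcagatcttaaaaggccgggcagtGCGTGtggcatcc

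The hypoxia core was found 2 times in the Slc2a1 window, 1 time in the first Pfkfb3 window and 4 times in the second. In the second Pfkfb3 window 2 of the 4 matches, 1 on each strand, lie in a single E-box, CACGTG, which holds the core on both strands. Of the 16 windows of the 10 genes, 14 held the core, against 43.8% of the 32851 windows of all genes, and each gene had a window with it. Among the 14 are 2 overlapping windows of Eno1 that hold the same matches. An E-box was present in 2 of the 16 windows, 1 of Pfkfb3 and 1 of Ldha, against 7.15% of all. TGGGAA, the core to which the Notch partner RBPJ binds, was searched on both strands and found in none of the 3 windows shown, in 3 of the 16 (1 of Pgk1 and 2 overlapping ones of Eno1), and in 25.6% of all. Such matches describe the letters only.

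Among the entry steps, Slc2a1 (chromosome 4, 119108745 to 119137330) had log2 levels of 10.43, 10.36, 10.40 and 9.92 in WT replicates 1 to 4. In the Ad/NICD replicates it was at 10.46, 10.54, 10.67 and 10.48. Every Ad/NICD sample lay above every WT sample, though the highest WT and the lowest Ad/NICD level nearly met, and WT replicate 4 lay apart below the rest. The log2 ratio was 0.26 ± 0.10 (95% interval 0.00033 to 0.52), above 0 on 4 of 4 arrays at 0.028, 0.17, 0.27 and 0.57, and limma's adjusted p was 0.33. Without replicate 4 it was 0.16. Median centring moved the median of all gene names to -0.32, next to which the -0.26 of Slc2a1 is higher by a small margin.

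**Figure D1:**
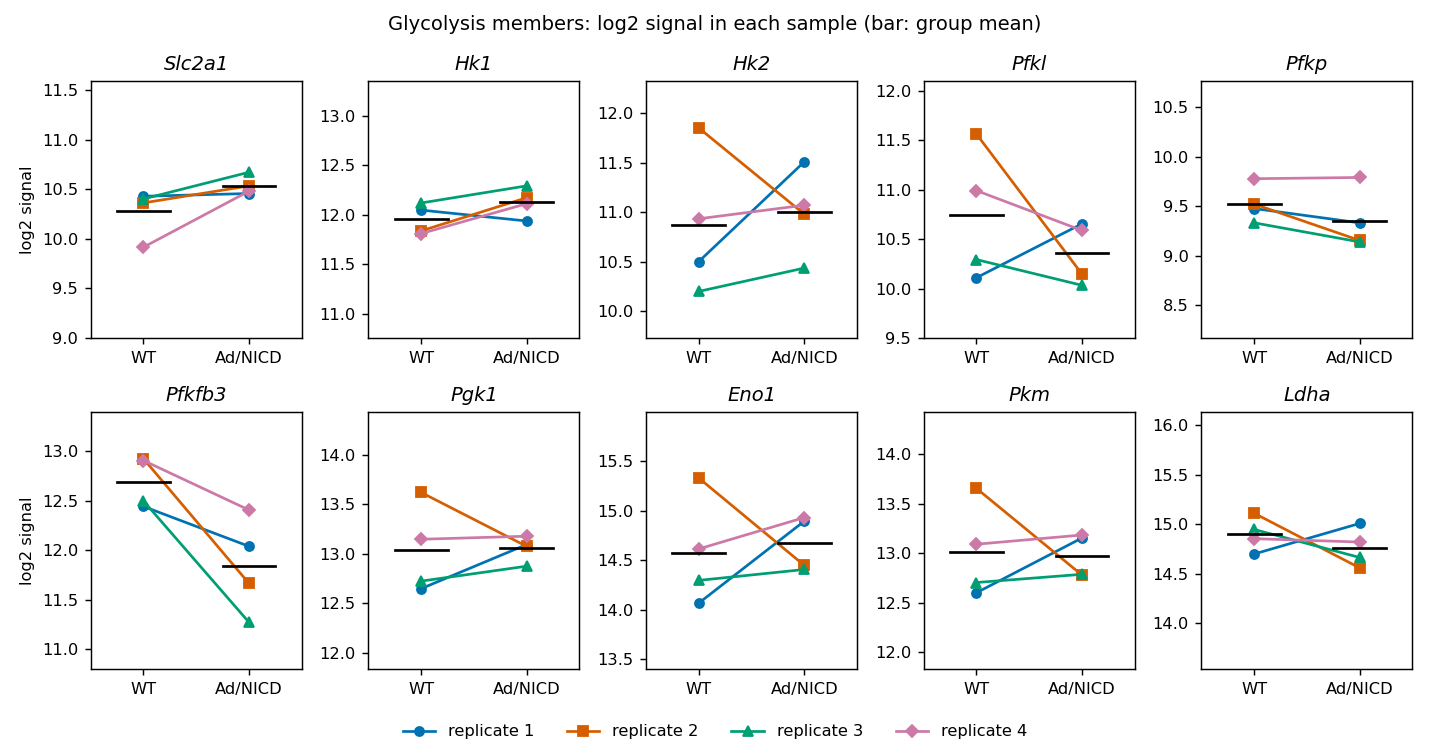
Log2 signal (vertical axis, its range differing between panels) of the 10 genes in WT and Ad/NICD samples, with a line joining the samples of 1 array and a black bar at each group mean. Pfkfb3 is lower and Slc2a1 higher in each Ad/NICD sample than in any WT sample after loess (the ratio of Slc2a1 turns to -0.26 under median centring), while Hk2, Pfkl, Pgk1, Eno1, Pkm and Ldha are higher in Ad/NICD on the array of replicate 1 and lower on that of replicate 2.

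Hk1, the hexokinase found in most tissues, was at 12.05, 11.84, 12.12 and 11.81 in WT and at 11.94, 12.17, 12.29 and 12.11 in Ad/NICD samples. It was higher in Ad/NICD on 3 of 4 arrays, with overlapping groups, and its ratio was 0.17 ± 0.09 (limma, adjusted p = 0.45). A second, dimmer probe of Hk1 gave 0.17 ± 0.063. Hk2, the insulin-regulated hexokinase of fat and muscle, had WT levels of 10.50, 11.85, 10.20 and 10.94 and Ad/NICD levels of 11.51, 10.98, 10.44 and 11.07. The WT samples spread over more than the Ad/NICD samples, and the array of replicate 1 and that of replicate 2 went opposite ways, with ratios of 1.01 and -0.87. Its mean ratio was 0.13 ± 0.30 with an interval of -0.62 to 0.88 (limma, adjusted p = 0.87). The interval covers a difference of either sign.

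At the phosphofructokinase step, Pfkl, the liver-type subunit, was at 10.11, 11.56, 10.30 and 10.99 in WT and at 10.66, 10.15, 10.04 and 10.59 in Ad/NICD samples. WT replicates 2 and 4 were the highest samples and replicate 1 was the single array on which Ad/NICD was higher. The ratio was -0.38 ± 0.31 (limma, adjusted p = 0.61). Pfkp, the platelet-type subunit, was at 9.48, 9.52, 9.33 and 9.78 in WT and at 9.33, 9.15, 9.14 and 9.79 in Ad/NICD samples. It was lower in Ad/NICD on 3 of 4 arrays, within overlapping groups, with a ratio of -0.17 ± 0.08 (limma, adjusted p = 0.39). Its second probe, which was dimmer, gave -0.022 ± 0.055.

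Pfkfb3 (chromosome 2, 11471430 to 11554071), which makes the fructose-2,6-bisphosphate that activates phosphofructokinase, had the largest difference of the 10 genes. Its levels were 12.44, 12.93, 12.50 and 12.91 in WT replicates 1 to 4 and 12.04, 11.67, 11.27 and 12.41 in Ad/NICD replicates 1 to 4. Every Ad/NICD sample was below every WT sample, with the highest Ad/NICD sample, replicate 4, just under the lowest WT sample, replicate 1. The ratio of -0.85 ± 0.18, a level 1.80-fold lower, had an interval of -1.31 to -0.39 and was below 0 on 4 of 4 arrays. It did not pass: limma's adjusted p was 0.16, and 0.092 when the array entered as a random block. A probe for another transcript of the gene had a ratio of -0.56 ± 0.16, with 0.014, -0.77, -0.76 and -0.74 on the 4 arrays and overlapping groups.

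In the later steps of the pathway, 3 enzymes had the same lowest and the same highest sample. Pgk1, which makes the first ATP of glycolysis, was at 12.65, 13.62, 12.72 and 13.15 in WT and at 13.09, 13.08, 12.88 and 13.18 in Ad/NICD samples. Eno1, the widespread enolase, was at 14.07, 15.33, 14.30 and 14.61 in WT and at 14.89, 14.45, 14.41 and 14.93 in Ad/NICD samples. Pkm, the pyruvate kinase of tissues other than liver and red cells, was at 12.60, 13.66, 12.71 and 13.09 in WT and at 13.16, 12.78, 12.79 and 13.19 in Ad/NICD samples. In all 3 the WT samples held both the lowest sample, replicate 1, and the highest, replicate 2, with the Ad/NICD samples between them. The ratios were 0.021 ± 0.17 for Pgk1, 0.093 ± 0.28 for Eno1 and -0.037 ± 0.23 for Pkm (limma, adjusted p of 0.97, 0.90 and 0.96). Of these, Pgk1 and Eno1 turned below 0 without replicate 1, and Pkm above 0, to 0.24, without replicate 2. Pgk1 also turned below 0 without replicate 3, to -0.023.

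Ldha, the lactate dehydrogenase subunit that favours lactate, was at 14.70, 15.11, 14.95 and 14.86 in WT samples. In Ad/NICD samples it was at 15.01, 14.56, 14.67 and 14.82. The groups overlapped, since Ad/NICD replicate 1 was above 3 of the 4 WT samples. The ratio was -0.14 ± 0.15 by the brightest of its 3 probes (limma, adjusted p = 0.70). The other 2 probes gave -0.37 ± 0.16 and -0.43 ± 0.14, the last below 0 on 4 of 4 arrays, so the probes of Ldha differ in size though not in sign.

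**Figure D2:**
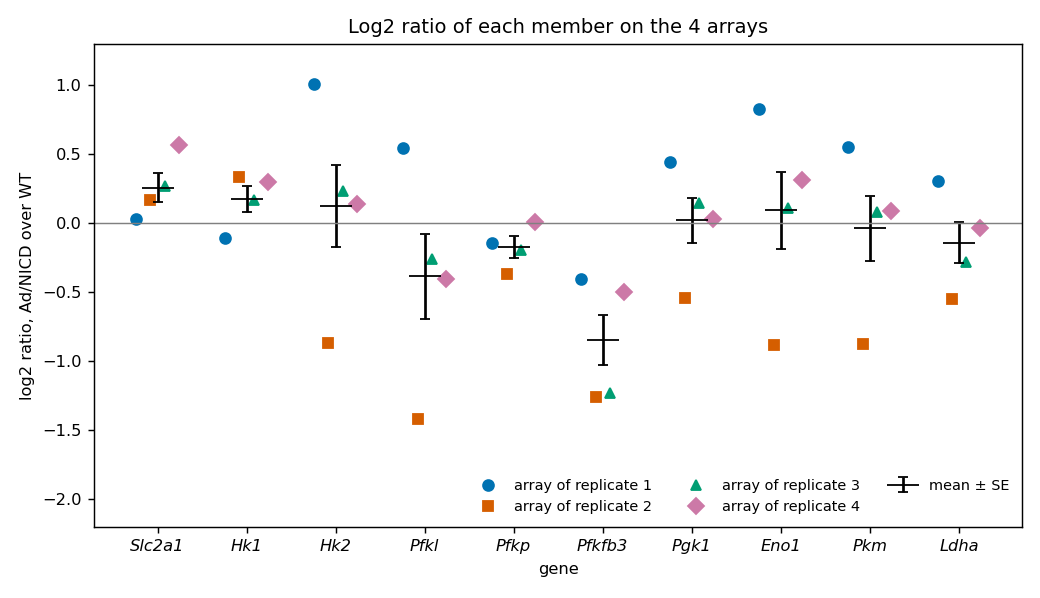
Log2 ratio of Ad/NICD over WT (vertical axis) for each gene on each of the 4 arrays, with the mean and limma's standard error. Each gene is shown by its brightest probe. The array of replicate 2 gives the lowest ratio in 8 of the 10 genes shown, and by these probes Pfkfb3 is the only gene below 0 on 4 of 4 arrays.

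Read against all gene names, 0 of 10 is near the background, since 12 of 25141 (0.0477%) passed this test on ratios (limma), with 0.0199% lower and 0.0278% higher. When the array entered as a random block, 1.97% of gene names passed (1.13% lower and 0.843% higher), and 0 of the 10. Without any block 1.02% passed, and again 0 of the 10. At an unadjusted p under 0.05 there were 2 of the 10, Pfkfb3 and Slc2a1, beside 15.2% of all gene names (8.97% lower and 6.26% higher). Groups that did not overlap were found for 1 of 10 lower and 1 of 10 higher, beside 5.58% and 4.21% of all. On 4 of 4 arrays 1 of 10 was lower and 1 of 10 higher, beside 13.3% and 11.2%. The median ratio of the 10 genes was -0.0083, next to -0.0059 for all gene names. Under median centring 10 of 10 were below 0, with a median of -0.37 next to -0.32 for all gene names and -0.89 for the 26 lipid genes.

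**Figure D3:**
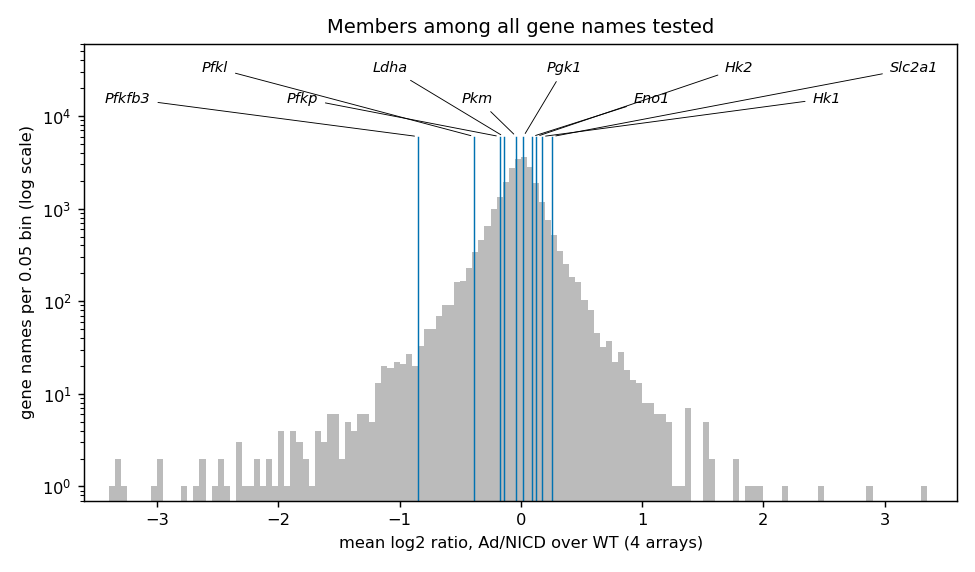
Number of gene names (vertical axis, log scale) by mean log2 ratio of Ad/NICD over WT (horizontal axis), with a line at each of the 10 genes. Apart from Pfkfb3 at -0.85 and Pfkl at -0.38, the genes lie within 0.26 of 0, inside the bulk of the 25141 gene names.

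The median SD of the 10 genes was 0.353 over the WT samples and 0.252 over the Ad/NICD samples, against 0.132 and 0.136 for all gene names, though Slc2a1 (0.096) and Pgk1 (0.13) were below the latter in Ad/NICD samples. WT replicate 2 was the highest WT sample for 7 of the 10 (8040 of 25141 gene names) and WT replicate 1 the lowest for 6 (4782 of 25141). By array, the median ratio of the 10 was 0.38, -0.71, 0.097 and 0.062 for replicates 1 to 4. Thus 7 of the 10 were higher in Ad/NICD on the array of replicate 1 and 8 of the 10 lower on that of replicate 2.

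Markers of brown or beige fat were also highest in ratio on the array of replicate 1 and lowest on that of replicate 2. The 7 markers had median ratios of 1.25, -1.80, -0.15 and 0.048, with mean levels of 11.06, 13.16, 11.28 and 11.72 in WT and 12.20, 11.39, 10.98 and 11.68 in Ad/NICD samples. Their summed signal ranged from 39150 to 173800 in WT and from 54810 to 121200 in Ad/NICD samples, and Ucp1, their defining gene, was well above background on 4 of 4 arrays in both. The 10 adipocyte markers had medians of -0.30, -1.01, -1.29 and -0.085, with 8 of 10 below 0. Their summed signals were 243800 to 346100 in WT and 120800 to 228900 in Ad/NICD samples. Among them Plin1, Fabp4, Cidec, Lipe and Pnpla2 are also lipid genes, so the adipocyte and lipid values rest in part on the same probes. The 8 macrophage markers had medians of -0.62, 0.42, -0.063 and 0.64, with 5 of 8 above 0 (1 of 8 under median centring) and summed signals of 28820 to 42290 and 27510 to 46650. Of the other marker lists, 8 of 8 endothelial, 4 of 4 erythroid and 5 of 8 lymphocyte markers were below 0 and 8 of 8 progenitor and fibroblast markers above 0. For the last list the count was 5 of 8 under median centring and 5 of 8 without replicate 4, where its median went from 0.37 to 0.0098. The part of these cells in the glycolysis values was not tested.

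**Figure D4:**
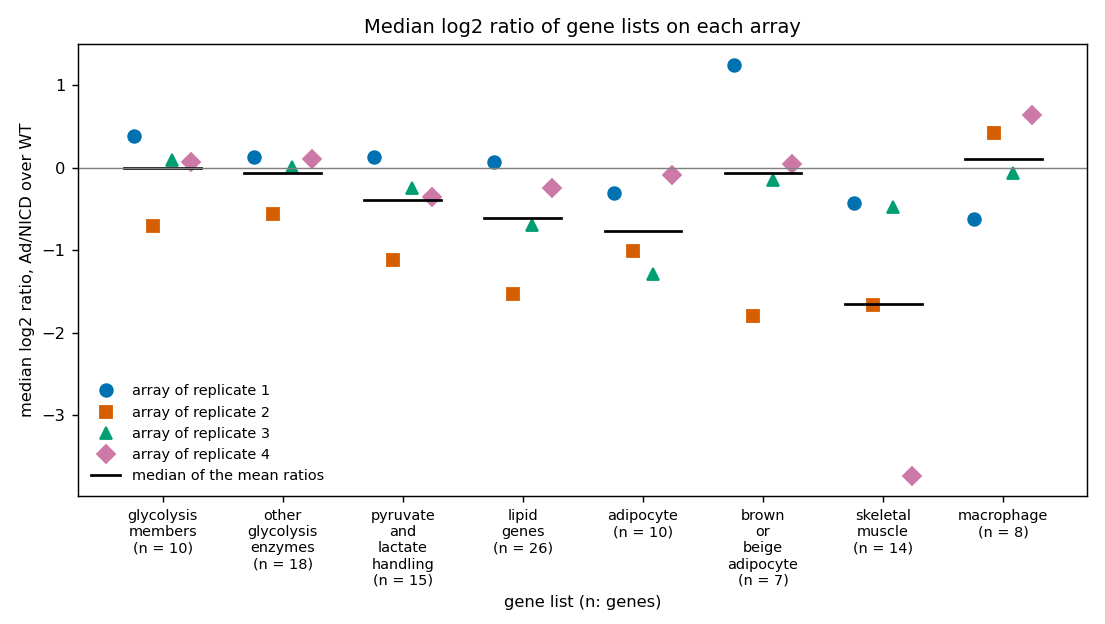
Median log2 ratio of Ad/NICD over WT (vertical axis) on each array for gene lists (horizontal axis), with a bar at the median of the genes' mean ratios. On the array of replicate 2 the glycolysis genes (-0.71), lipid genes (-1.53) and brown or beige markers (-1.80) are each at their lowest, and on that of replicate 4 the muscle markers are at -3.73.

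The lipid genes, which make, store and release triglyceride, had a median ratio of -0.61, with 23 of 26 below 0, next to 51.6% of all gene names. None of the 26 passed on ratios (10 were lower at an unadjusted p under 0.05, next to 8.97% of all gene names), and 3 fell under the random block (next to 1.13% of all gene names lower in that fit): the fatty acid transporter Slc27a1, Mogat1 and Dgat1, of which the last makes triglyceride. Slc27a1 was at -1.54 ± 0.19 (limma, adjusted p = 0.11, and 0.017 with the random block), Mogat1 at -1.51 ± 0.21 (0.12 and 0.033) and Dgat1 at -1.08 ± 0.22 (0.15 and 0.042). Lipe, the hormone-sensitive lipase, was at -0.62 ± 0.13 and passed neither fit. By array the lipid median was 0.070, -1.53, -0.70 and -0.25, and without replicate 2 the overall median was -0.26. On the array of replicate 2, 25 of 26 lipid genes and 8 of 10 glycolysis genes were below 0. The median of the glycolysis genes was -0.71 there. On that of replicate 3, 24 of 26 lipid genes were below 0. The glycolysis genes were at 0.097 on it, with 6 of 10 above 0. On those of replicates 1 and 4, 12 and 15 of 26 lipid genes were below 0. On each of them 7 of 10 glycolysis genes were above 0. The glycolysis and lipid lists were not compared by a test.

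As for which isoforms were detected in this white fat tissue, each of the 10 genes was well above background on 4 of 4 arrays in both channels. So were the transporter Slc2a4, the muscle-type subunit Pfkm, Gapdh, Hk3, Eno2, Eno3, Aldoa, Aldoc and Ldhb, of which those after Gapdh were chosen after their values were seen. Not well above background on enough arrays were Slc2a2, the transporter of liver and islets, Hkdc1 and the liver and red cell pyruvate kinase Pklr. No order of abundance among isoforms is given, because probes differ in brightness for the same amount of RNA. Nor can a signal from bulk tissue be assigned to white fat cells. WT replicate 4, where the muscle markers had a mean level of 11.72, had Eno3 at 13.68 and Pfkm at 11.42. In the other WT samples Eno3 was at most 11.28 and Pfkm at most 10.79.

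The balance between isoforms was compared within arrays as the difference of their log2 ratios, for 8 pairs chosen after the files were seen. For Slc2a4 minus Slc2a1 this was 0.32, -1.40, -0.90 and -0.52 on the 4 arrays, with a mean of -0.62 ± 0.36 (SE, n = 4; exact two-sided sign-flip test, p = 0.25). For Hk2 minus Hk1 it was 1.12, -1.21, 0.064 and -0.16, with a mean of -0.047 ± 0.48 (exact p = 0.75). Pfkl minus Pfkp had a mean of -0.21 ± 0.36 (exact p = 0.625) and Ldha minus Ldhb one of -0.074 ± 0.23 (exact p = 0.625). The exact test over 4 arrays cannot go below 0.125, and the adjusted p was 1 for all 8 pairs.

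Of 10 further glucose transporters, 8 were kept, with 4 above 0 and 4 below and a median of 0.021. The ratio fit and the random block (limma) passed 0 of 8, next to 0.0477% and 1.97% of all gene names. At an unadjusted p under 0.05 there were 0 of 8, next to 15.2% of all gene names. Slc2a4 was at -0.36 ± 0.27 (limma, adjusted p = 0.58), with 0.35, -1.23, -0.63 and 0.048 on the 4 arrays. Slc2a8 was at -0.23 ± 0.10, Slc2a10 at 0.25 ± 0.13 and Slc2a13, the proton myo-inositol transporter, at -0.22 ± 0.13. These 3 had the lowest p of the list beside Slc2a4, and none kept 1 sign on 4 of 4 arrays.

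Of 21 further glycolysis enzymes, 18 were kept, 8 above 0 and 10 below with a median of -0.071. Pfkfb1, another enzyme of the PFKFB family, fell in the fit with the random block alone, at -0.52 ± 0.09 (limma, adjusted p = 0.032, and 0.13 in the ratio fit). It was the only 1 of the 18 to pass there, next to 1.13% of all gene names lower in that fit. Its ratios were -0.31, -0.79, -0.54 and -0.44 and its groups did not overlap. Pfkfb4, of the same family, was at 0.40 ± 0.15 with groups that did not overlap and an adjusted p of 0.31 by limma. Its sign turned under median centring, to -0.11. Groups did not overlap for 3 of the 18, Pfkfb1, Pfkfb4 and Eno3, next to 5.58% lower and 4.21% higher among all gene names. Triose phosphate isomerase, Tpi1, was at -0.33 ± 0.14, and Gapdh at 0.16 ± 0.19, with a sign that turned under 4 alternatives.

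The muscle-type enzymes had their lowest ratios on the array of replicate 4. Pgam2, the muscle phosphoglycerate mutase, was at -1.67 ± 0.69, with -0.42, -1.66, -0.34 and -4.24 on the 4 arrays, and at -0.81 without replicate 4. Pfkm was at -0.36 ± 0.25, with 0.27, -0.52, 0.0018 and -1.20. Eno3, the muscle enolase, named after its values were seen, was at -0.83 ± 0.45 and at -2.60 on the array of replicate 4. The 14 skeletal muscle markers had median ratios of -0.42, -1.67, -0.47 and -3.73, with 14 of 14 below 0 and summed signals of 5653 to 205400 in WT and 3629 to 15370 in Ad/NICD samples. Among them Ckm was well above background in 2 of 4 Ad/NICD samples and Myh2 in 3 of 4. The part of muscle RNA in the ratios of these enzymes was not tested.

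Beyond pyruvate, 12 of 15 genes of pyruvate and lactate handling were below 0, with a median of -0.39 and array medians of 0.13, -1.12, -0.25 and -0.36. Pcx, pyruvate carboxylase, which makes the oxaloacetate that carries acetyl groups out of mitochondria for fat synthesis, was at -1.53 ± 0.26, with -0.86, -2.30, -1.88 and -1.09 on the 4 arrays. It fell in the fit with the random block (limma, adjusted p = 0.019) and not in the ratio fit (0.13), and its groups did not overlap. The random block passed 1 of the 15, next to 1.13% of all gene names lower in that fit. Groups did not overlap for 2 of the 15, next to 5.58% lower and 4.21% higher among all gene names. Of the kinases that switch off pyruvate dehydrogenase, Pdk1 was at -0.55 ± 0.11 (limma, adjusted p = 0.053 with the random block) and Pdk4 at -1.25 ± 0.40. The mitochondrial pyruvate carrier subunit Mpc2 was at -0.75 ± 0.32. Without replicate 2, Mpc2 was at -0.37, Pdk4 at -0.79 and the median of the 15 genes at -0.077.

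Of the 7 genes that oppose glycolysis or run gluconeogenesis, 0 passed either limma fit and 5 were below 0, with a median of -0.13. At an unadjusted p under 0.05 there were 3 lower and 1 higher, next to 8.97% and 6.26% of all gene names. Pck1, an enzyme of the route by which fat makes glycerol phosphate from pyruvate, was at -1.17 ± 0.20 and below 0 on 4 of 4 arrays (limma, adjusted p = 0.13, and 0.054 with the random block). Txnip, an inhibitor of glucose uptake, was at -0.60 ± 0.15 (0.19 and 0.054). G6pc3 was at -0.27 ± 0.09 and Tigar, which lowers fructose-2,6-bisphosphate, at 0.33 ± 0.12, the last turning to -0.17 under median centring. Of 6 regulators of glycolytic genes 0 passed (2 lower at an unadjusted p under 0.05, limma, next to 8.97% of all gene names) and 4 were below 0, with a median of -0.065. They included Mlxipl (ChREBP), which senses glucose and drives genes of glycolysis and lipogenesis, at -0.71 ± 0.24 (-0.32 as the mean of its probes and -0.47 without replicate 2), Epas1 (HIF-2α) at -0.44 ± 0.17, Mlx at -0.10 ± 0.08 and Arnt at 0.058 ± 0.077, which turned to -0.45 under median centring.

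The 4 named genes whose ratios were nearest to those of Pfkfb3 over the 4 arrays, by the root mean square difference, were Gpt (0.070), Rxrg (0.075), Cluh (0.12) and Hibch (0.14). Gpt, alanine aminotransferase, was at -0.89 ± 0.18 and Rxrg, a retinoid X receptor, at -0.82 ± 0.16. The nearest 5 also held a probe with no gene symbol, at 0.12. The likeness rests on 4 values per gene and was searched over all gene names.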

How the data were processed

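White adipose tissue of 4 WT and 4 Ad/NICD mice was measured on 4 arrays. Per the submitters' processing notes, the scanner software was Agilent Feature Extraction 11.5. Its deposited tables give intensity values per spot and a log10 ratio of red over green, which was used only to check the channels. The authors' value table is on a log2 scale, each column being 1 channel minus a constant, with column medians of -3.84 to -3.52 and no step behind it given in the sources used here. WT and Ad/NICD scanner tables of the same number were identical and were read as 1 array.

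Background was corrected by normexp (offset 50) on median signals, each array was normalised by loess (weight 0 for control spots), and spots of a probe were averaged (limma 3.58.1, R 4.3.3). Names came from RefSeq (GRCm38.p6), which matched 28026 of 55681 probes. Probes had to be well above background, in either channel, on 3 of 4 arrays, and the brightest kept probe stood for its gene name. The table of replicate 1 lacks these flags, which were rebuilt as a signal above 6 times the median absolute deviation of the negative controls, a rule chosen among several for its 98.3% to 100% agreement with the scanner's flags on the other arrays, after a first rule (2.6 times the SD) had been run.

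The 4 log2 ratios were tested against 0 with lmFit and eBayes, whose SE is given, with Benjamini-Hochberg adjustment over all gene names and a threshold of 0.05. This ratio fit is the paired fit. Deviations of same-numbered samples, which share 1 array, from their group means correlated at 0.18, 0.17, 0.56 and 0.53. For samples of unlike number the values were -0.53 to 0.28. The highest of these, WT replicate 1 with Ad/NICD replicate 3, was above the 0.18 and 0.17 of the replicate 1 and 2 pairs. The random block is duplicateCorrelation on separate channels. Values for second probes come from a fit over all probes, with no filter on background. The script was tested on simulated data. Some genes of the lists are not reported here by name. The members and lists were chosen with earlier results of these data known. Named are all 10 members, Slc2a4, Pfkm, Gapdh, genes of a list past the threshold in either fit, the 4 lowest p of each list, and the 5 patterns nearest to the member with the largest ratio.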

Additional observations from a re-analysis of the deposited data

Results flagged for a closer look

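The log2 level of Slc2a1 in WT replicate 4, at 9.92, stood apart from the other 3 WT samples, which lay between 10.36 and 10.43. The gap made up 0.87 of the range of the group, above Dixon's 95% critical value for 4 samples. It was the only such case among 71 groups of 4 values checked, and chance alone gives about 1 in 20. The same sample pair has the male pattern of Xist and Eif2s3y and its WT sample the highest level of skeletal muscle markers, and the part of either in the Slc2a1 level was not tested.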

How the results depend on the processing

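The count of 0 of 10 glycolysis genes past the threshold was the same under all 14 alternatives run, with adjusted p-values for Pfkfb3 from 0.078 (median centring) to 0.60 (without replicate 3) and ratios from -1.27 to -0.71. The count of all gene names past the threshold, 12 in the ratio fit, was 3 with the processed signals and 3 with the authors' value table. It was 0 with median centring, 0 with no filter and 0 with eBayes trend and robust settings (9619, 5092 and 2898 at an unadjusted p under 0.05). Leaving out each replicate gave 0 to 43, with 0 without replicates 1, 2 or 3 (3569, 2542 and 1993 unadjusted). With separate channels it was 256 with no replicate block and 496 with the array as a random replicate block, and no glycolysis gene passed in either. These 2 fits differ in the pairing alone, while the ratio fit differs from both in form as well. The first rule for the rebuilt flags, an alternative added after seeing the data, gave 13 of 24141 gene names.

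Of 36 single genes, 26 kept their sign under the alternatives run. Median centring turned Slc2a1 to -0.26, Hk1 to -0.27, Hk2 to -0.37, Pgk1 to -0.35, Eno1 to -0.16, Gapdh to -0.056, Pfkfb4 to -0.11, Tigar to -0.17 and Arnt to -0.45, with the median of all gene names at -0.32 and all 10 glycolysis genes below 0. Gapdh also turned to -0.0088 with processed signals, -0.046 with the mean of its probes and -0.027 in the authors' value table, where Pgk1 was at -0.021. Leaving out replicates gave -0.17 to 0.46 for Hk2, -0.12 to 0.21 for Pgk1, -0.15 to 0.42 for Eno1 and -0.23 to 0.24 for Pkm. With 4 arrays on 1 dye orientation, and red signals near background for dim probes, small differences were not detectable.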

Other observations

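Slc2a5, the fructose transporter, had the largest spread between arrays among the glucose transporters measured, and was chosen after its values were seen. Its log2 levels were 8.70, 11.18, 8.77 and 10.11 in WT and 10.64, 8.29, 9.73 and 10.67 in Ad/NICD samples. The ratios were 1.94, -2.88, 0.96 and 0.57, with a mean of 0.15 ± 0.79 that did not pass (limma, adjusted p = 0.95). Ucp1, which lets brown fat mitochondria make heat, was at 12.24, 15.16, 13.03 and 13.44 in WT and at 14.66, 12.49, 12.57 and 13.90 in Ad/NICD samples.

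Aldoc, an aldolase also chosen after its values were seen, was lowest in the samples of replicate 4, in WT and Ad/NICD alike. It was at 11.12, 11.07 and 11.18 in WT replicates 1 to 3 and at 10.20, 9.83 and 11.40 in Ad/NICD replicates 1 to 3. In replicate 4 it was at 8.15 in WT and 7.98 in Ad/NICD, the pair with the male pattern of Xist and Eif2s3y. The ratios of Aldoc were -0.92, -1.23, 0.22 and -0.17 on the arrays of replicates 1 to 4. Their mean of -0.52 ± 0.26 did not pass (limma, adjusted p = 0.42).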
